A study of Mus musculus with 6 samples.

Results

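The Pptc7 locus is a stretch of mouse chromosome 5 that was described here as 15 DNase I hypersensitive regions, out of 75169 regions in the whole series. Its members are all regions that overlap chr5:122690000-122800000 (build mm9), a window of 110 kb around the gene Pptc7, and the window was chosen by the hotspot densities of these same fasted and fed livers, in which it stood out as a run of risen sites. Fasted against fed densities of the members are therefore given as a description, with no p for any member. Where a member passed or did not pass the threshold of a fit over the whole series, that is stated as part of the description and supports nothing about the locus. Livers came from C57BL/6 mice, an inbred laboratory strain, in 2 groups of 3 libraries: mice deprived of food for 24 h (fasted) and mice with free access to food (fed). Both groups were kept in a light and dark cycle and killed at the time of lights on, and no transgene or drug is named in the labels. The labels name neither age nor sex, nor whether each library came from a separate animal, so the spread between libraries may be partly technical.

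PPTC7 is a phosphatase of the PP2C family that resides in mitochondria, where it removes phosphate groups from mitochondrial proteins. It is known to restrain mitophagy, the removal of mitochondria by autophagy, by limiting the receptors BNIP3 and NIX. Mitochondria of the liver oxidise fatty acids and make ketone bodies during a fast. DNase I digests open chromatin first, and a hotspot is a place with a local excess of cut ends, as found at promoters and enhancers. In the RefSeq gene table (assembly GRCm38.p6) the gene lies between the long noncoding RNA gene 1700112N08Rik on the side of lower coordinates and Rad9b, a relative of a DNA damage checkpoint gene, on the other. Beyond these lie Tctn1, which encodes a protein of the ciliary transition zone, and Vps29, which encodes a subunit of the retromer. The table is of another build than the hotspots, so no region below is assigned to a promoter, exon or intron, and the members are called region 1 to region 15 in order of their mm9 coordinates.

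The promoter of Pptc7 is shown because the window was drawn around this gene. It is the 250 bases before the annotated start, on the plus strand of chromosome 5, from the RefSeq promoter table (GRCm38.p6), with GC boxes in capitals.
Pptc7 promoter: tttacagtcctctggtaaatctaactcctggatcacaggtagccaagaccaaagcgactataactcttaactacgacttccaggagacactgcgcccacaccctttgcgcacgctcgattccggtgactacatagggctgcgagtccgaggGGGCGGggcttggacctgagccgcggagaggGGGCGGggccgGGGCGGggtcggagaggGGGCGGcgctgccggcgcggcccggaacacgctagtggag

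It was rich in G and C (64.0%, against a median of 52.4% over 32851 promoters of that table) and held 23 CpG dinucleotides, with an observed over expected ratio of 0.91 (median of all promoters 0.373). The GC box GGGCGG, a motif added after the sequence was seen, occurred 4 times on the plus strand and 0 times on the minus strand. The first bases of these boxes lay 99, 68, 57 and 40 bases before the start, and 32.7% of all promoters held at least 1 on either strand. Motifs of factors known from the fasted liver were searched on both strands and had 0 matches. These were the cAMP response element TGACGTCA (in 1.55% of all promoters), the C/EBP motif TTGCNNAA (9.56%) and the FOXO motif TGTTTAC (3.17%). Also searched, with 0 matches, were AGAACA, only a part of the glucocorticoid receptor motif (16.1%), and AGGTCA, only a part of nuclear receptor motifs (14.0%). No match says only that these letters are not in these 250 bases.

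Each library has its own list of hotspots, 49595 to 63368 on chromosomes 1 to 19 and X, and each hotspot carries a maximum tag density, used here as its level. Depth is not stated, but within each library the maxima were whole multiples of 1 step (100% within 0.05 step), which gives relative depth if 1 step is 1 tag. With fed replicate 2, the shallowest library, set to 1.00, relative depth was 1.32, 1.90 and 1.24 in fasted replicates 1 to 3, and 1.02 and 1.64 in fed replicates 1 and 3. Calls in the window were 27 to 575 steps high in fasted and 21 to 331 steps high in fed libraries, and a tag count of the lowest heights has a counting error of 19.3% in fasted and 21.8% in fed libraries. Fasted replicate 2, the deepest library if 1 step is 1 tag, was the highest fasted library at regions 2, 4, 8 and 9, among others. Regions 8 and 9, where the fasted libraries differed most from each other, are given with and without it.

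More regions of the window were called in each fasted library than in any fed library, in a window that was picked for risen sites. Fasted libraries called 14, 15 and 12 of the 15 regions, against 9, 8 and 10 in fed libraries, and their hotspots there covered 11944, 16320 and 10060 bp in fasted and 5924, 5111 and 8963 bp in fed libraries. The whole lists held 49595, 63368 and 50534 hotspots in fasted replicates 1 to 3, against 51521, 50902 and 63011 in fed replicates 1 to 3. Of the 15 regions, 8 were called in all 6 libraries (shared), 4 in all 3 fasted and in 0 fed libraries, 0 in all 3 fed and in 0 fasted libraries, and 3 in some other combination. Over the whole series 1.17% of regions were called in all fasted and in 0 fed libraries, and 1.57% the other way. The library of each group with the smallest step, and so the greatest depth if 1 step is 1 tag, called the most regions and covered the most bp. The part of depth in these counts and lengths was not tested. The length covered by the whole lists is not given here, so the lengths in the window have no background beside them. In tiles of 110 kb across the genome that held any region, the median was 4 regions, and 2.25% of tiles held 15 or more.

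**Figure D1:**
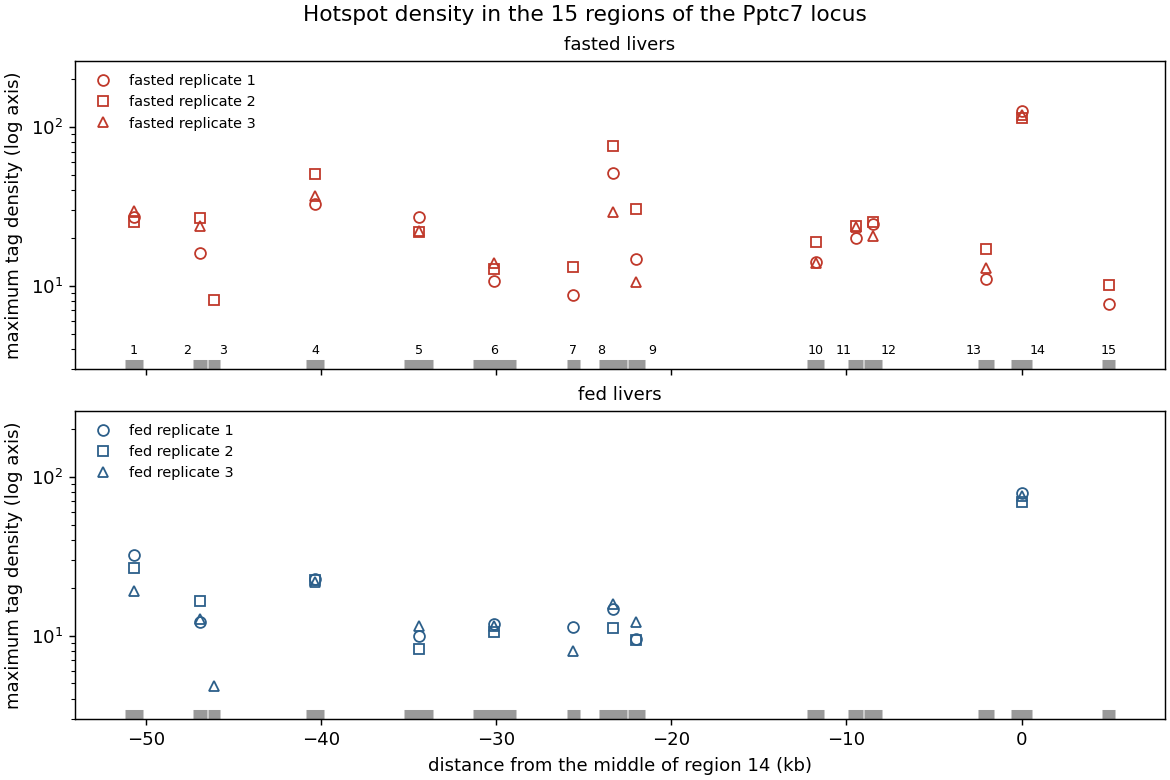
Maximum tag density (log axis) of every hotspot call in the 15 regions, by distance in kb from the middle of region 14, with fasted livers above and fed livers below. Each symbol is 1 library, grey bars are the regions with their numbers, and a missing symbol is a missing call: regions 10 to 13 have symbols in all 3 fasted and in 0 fed libraries.

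Shared regions were compared as log2(density + 1), less the median of the library, in a limma fit over all 37044 regions of the series that were called in all 6 libraries. Of the 8 shared members, 5 passed in that fit as higher in fasted livers (regions 2, 4, 5, 8 and 14, Benjamini-Hochberg adjusted p under 0.05) and 0 as lower. The background of the same rule over all shared regions was 7.89% higher (2921 regions) and 7.84% lower (2905 regions), or 1946 and 3189 regions without centring. On the centred scale every fasted library lay above every fed library at those 5 members (at region 2 only barely), as at 16.8% of all shared regions. Since the window was picked on this contrast, the choice favours such calls and nothing is read from them. The log2 fold changes of the 8 members ran from 0.17 to 1.82 with a median of 0.74, beside a median of 0.03 over all shared regions. In a whole liver, more nuclei with an open site and more cutting per nucleus cannot be told apart.

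Region 8 (chr5:122741094-122742651) had the greatest fold change. Its maximum tag density was 51.6, 75.8 and 29.1 in fasted replicates 1 to 3, against 14.7, 11.2 and 15.8 in fed replicates 1 to 3. All fasted libraries lay above all fed libraries, but they differed widely among themselves, from 2.09 to 5.45 times the fed mean. The mean was 52.2 ± 23.4 in fasted and 13.9 ± 2.38 in fed livers (SD, n = 3 each). The log2 fold change was 1.82 (SE 0.28), above that of 99.9% of all shared regions. It was 1.44 without fasted replicate 2 and 2.23 without fasted replicate 3. The hotspot was also longer: it covered 1125, 1558 and 1028 bp in fasted and 735, 670 and 1029 bp in fed libraries, so fed replicate 3 lay within the fasted range.

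Region 5 (chr5:122729965-122731610) had the next greatest fold change by maximum density, and its fasted libraries were far more even. Its density was 27.0, 21.7 and 22.1 in fasted libraries, against 9.93, 8.24 and 11.4 in fed libraries. The lowest fasted library was thus well above the highest fed one. The means were 23.6 ± 2.92 in fasted and 9.87 ± 1.60 in fed livers (SD, n = 3 each), and the log2 fold change was 1.25 (SE 0.21). With the average density of hotspots in place of the maximum it was 0.82, as it was for region 4 (0.82). The region is a main hotspot with a weaker shoulder at higher coordinates. That shoulder was called on its own with a density of 9.08 in fasted replicate 1 and 11.5 in fasted replicate 3, against 5.04 in fed replicate 3. In fasted replicate 2 both were 1 hotspot of 1635 bp, and in fed replicates 1 and 2 no shoulder was called.

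Region 14 (chr5:122764602-122765803) was the strongest site of the window, and denser than 92.8% of all shared regions. Its density was 126.5, 113.5 and 119.6 in fasted libraries, against 79.1, 69.7 and 75.8 in fed libraries. Both groups were tight and did not overlap, with coefficients of variation of 5.45% in fasted and 6.35% in fed livers. The mean in fasted livers was 1.60 times that in fed livers (119.9 ± 6.54, against 74.8 ± 4.76 in fed livers, SD, n = 3 each), and the log2 fold change was 0.74 (SE 0.13).

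Region 4 (chr5:122724364-122725368) had a density of 32.6, 50.3 and 36.9 in fasted libraries, against 22.8, 22.5 and 21.7 in fed libraries. The fed libraries were nearly level, and each fasted library was above them. Its log2 fold change was 0.86 (SE 0.21). Region 2 (chr5:122717866-122718667) had a density of 16.2, 26.8 and 23.9 in fasted libraries, against 12.1, 16.5 and 12.8 in fed libraries. As deposited the groups overlapped, since fasted replicate 1 lay just below fed replicate 2. They came apart only after centring, and then by a very small margin. Its log2 fold change was 0.71 (SE 0.23), and it no longer passed without fasted replicate 2 (0.51), fasted replicate 3 (0.70), fed replicate 1 (0.61) or fed replicate 3 (0.69), or without centring (0.64).

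**Figure D2:**
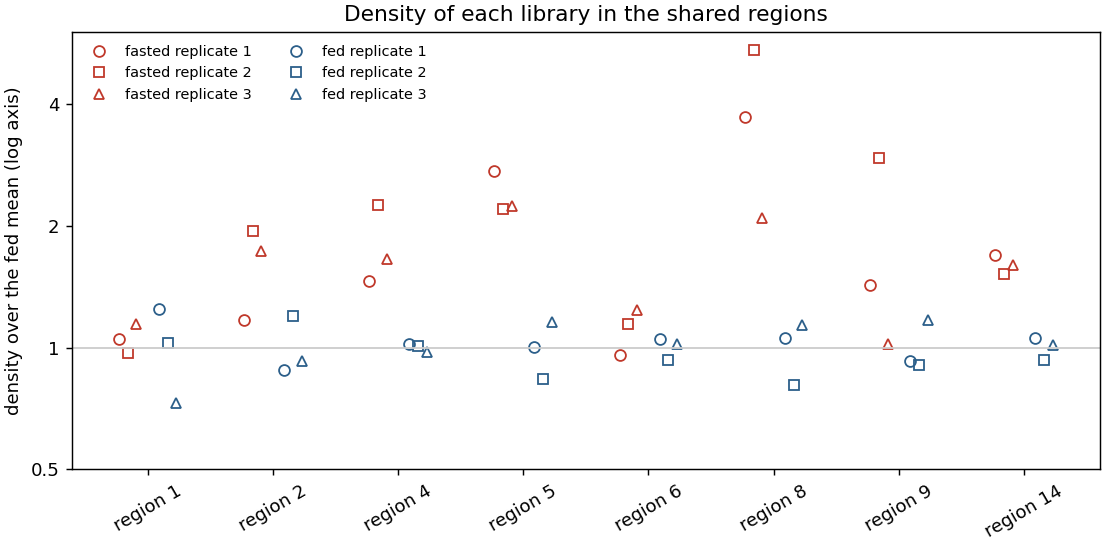
Maximum tag density of each library divided by the fed mean of the same region (log axis) for the 8 shared regions, fasted libraries left of fed ones. In region 8 the fasted libraries spread from 2.09 to 5.45, whereas in region 14 they lie between 1.52 and 1.69.

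The other 3 shared regions did not pass. Region 9 (chr5:122742725-122743704), 73 bp from region 8, had a density of 14.8, 30.4 and 10.6 in fasted libraries, against 9.56, 9.37 and 12.1 in fed libraries. Fasted replicate 2 alone was far above the rest, and fasted replicate 3 lay below the highest fed library. The log2 fold change was 0.74 (SE 0.30); it was 0.27 without fasted replicate 2, and 1.11 without fasted replicate 3, where the region passed.

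Region 6 (chr5:122733849-122736306) was the widest member at 2458 bp and the least variable in fed livers apart from region 4. Its density was 10.8, 12.8 and 13.9 in fasted libraries, against 11.8, 10.5 and 11.4 in fed libraries, and the groups overlapped. The log2 fold change was 0.21 (SE 0.21), although the region lies between regions 5 and 8, which had the greatest fold changes of the window by maximum density. Like region 5 it joined a main hotspot to a weaker one at higher coordinates. The weaker one reached 9.08 and 7.26 in fasted replicates 1 and 3, against 6.62 and 7.55 in fed replicates 1 and 3.

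Region 1 (chr5:122713994-122715020), at the low coordinate end, had a density of 27.2, 25.3 and 29.7 in fasted libraries, against 32.4, 26.6 and 19.0 in fed libraries. The fed libraries enclosed the fasted ones, and the log2 fold change was 0.17 (SE 0.20).

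**Figure D3:**
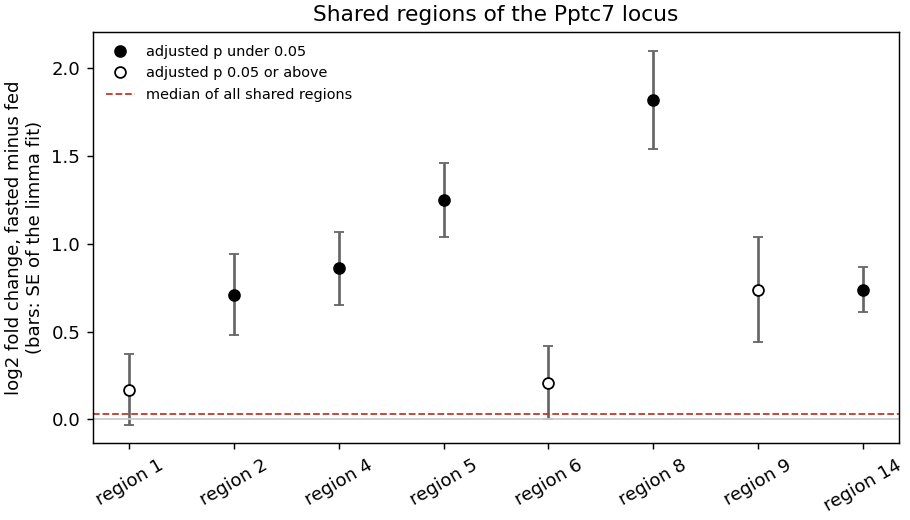
Log2 fold change, fasted minus fed, of the 8 shared regions in order along the chromosome, with SE of the limma fit as bars; filled points passed an adjusted p of 0.05 and the dashed line is the median of all shared regions (0.03). Regions 1 and 6 lie at 0.17 and 0.21, and region 8 at 1.82.

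The members called in fasted livers only form a group of 4 between regions 9 and 14, within 10.6 kb. Region 10 (chr5:122752974-122753913) had a density of 14.2, 18.9 and 13.9 in the fasted libraries. Region 11 (chr5:122755270-122756168) had 20.1, 23.9 and 23.3, and region 12 (chr5:122756198-122757206), 29 bp further on, had 24.7, 25.3 and 20.6. Region 13 (chr5:122762715-122763606), 995 bp before region 14, had 11.1, 17.2 and 13.0. Coefficients of variation over the fasted libraries were 18.0%, 8.97%, 10.8% and 22.7% for regions 10, 11, 12 and 13.

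A missing call has an unknown density, so no fold is given for these 4 regions. The fed lists did hold hotspots of such heights elsewhere. The share of hotspots weaker than the lowest fasted density of region 13 (11.1) was 30.8% in fed replicate 1, 33.2% in fed replicate 2 and 47.0% in fed replicate 3. For region 12 (20.6) these shares were 55.1%, 57.4% and 66.2%. The weakest fed call inside the window was 4.81. Fed replicate 3, at a relative depth of 1.64 against 1.32 and 1.24 in fasted replicates 1 and 3 if 1 step is 1 tag, called 0 of the 4; the part of depth in the missing calls was not tested. Among all regions called in fasted livers only, whose median density was 8.78, regions 11 and 12 were denser than 95.5% and 96.1%, and regions 10 and 13 than 85.3% and 80.2%. When hotspots within 150 bp were merged, regions 11 and 12 became 1, which left 3 such regions.

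The other 3 members were weak and called in part of the libraries. Region 3 (chr5:122718737-122719414) was called at 8.09 in fasted replicate 2 and 4.81 in fed replicate 3, the library of each group with the smallest step. Region 7 (chr5:122739221-122739979) was called at 8.79 and 13.2 in fasted replicates 1 and 2, and at 11.4 and 8.01 in fed replicates 1 and 3, with no call in the third library of either group. Region 15 (chr5:122769798-122770543), the last member, was called at 7.66 and 10.1 in fasted replicates 1 and 2 and in 0 fed libraries. Without fasted replicate 3 it would count as called in fasted livers only, which gives 5 such regions.

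The order of the members by density differed between the groups. In fasted livers region 14 came first, followed by region 8 (52.2 ± 23.4) and region 4 (40.0 ± 9.23), whose libraries overlapped. Every library of region 4 was above those of region 1 (27.4 ± 2.21), which came next. From region 1 down to region 6 (12.5 ± 1.60), the lowest of the 12 regions called in all fasted libraries, no 2 neighbours in the order were apart. In fed livers region 14 again came first, but region 1 (26.0 ± 6.71) and region 4 (22.3 ± 0.543) followed, with libraries that overlapped. Region 8 (13.9 ± 2.38) came next and overlapped with region 2 (13.8 ± 2.34), and region 5 (9.87 ± 1.60) was last of 8 (SD, n = 3 throughout).

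Joined by gaps of at most 20 kb, regions that passed as higher and regions called in fasted livers only made a stretch of 9 at this locus, from 122717866 to 122765803 (47.9 kb), with a largest gap of 10.3 kb. The same 47.9 kb held 13 regions in all, and those beyond the 9 met neither rule. The genome held 100 such stretches of 4 or more regions, and 4 of them were larger, with up to 12 regions. At this locus 4 of the 9 regions (44.4%) had no fed call, against 20.2% of the regions of all 100 stretches, and 5 stretches, this one included, held 4 or more such regions. With gaps of at most 10 kb the stretch held 5 regions. These figures describe a locus that was picked for its risen sites.

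Just outside the window, the nearest regions on the high coordinate side did not pass. The nearest at the high coordinate side (chr5:122803784-122804906) lay 33.2 kb past region 15 and was strong: 119.2, 120.0 and 129.9 in fasted libraries, against 145.3, 139.8 and 108.9 in fed libraries. The groups overlapped there and the log2 fold change was -0.01 (SE 0.13). The next (chr5:122821872-122822976) had 58.7, 58.2 and 75.7 in fasted libraries, against 55.9, 60.3 and 55.6 in fed libraries, with a log2 fold change of 0.22 (SE 0.15). On the low coordinate side the nearest regions outside, 71.0 and 87.1 kb before region 1, were called in fed replicate 3 alone, at 5.04 and 4.81. They were therefore not in the fit and could not pass. The nearest shared region on that side lay farther off and did not pass (log2 fold change 0.04, SE 0.18).

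Within 500 kb on either side of region 14, 35 shared regions lay outside the window, with a median log2 fold change of 0.06 and a range from -0.53 to 1.52. Of these, 4 passed as higher and 0 as lower, beside 7.89% and 7.84% of all shared regions of the series. Of the 4, 3 form a group 288.5 to 298.0 kb before region 14 (log2 fold changes of 1.52, 0.59 and 1.00), and 1 lies 485.6 kb after it (0.60). No region there, outside the window, was called in fasted livers only (0) or in fed livers only (0). Over the whole series these shares were 1.17% and 1.57%. The number of flanking regions of any kind was not counted, so this is not set against the locus.

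**Figure D4:**
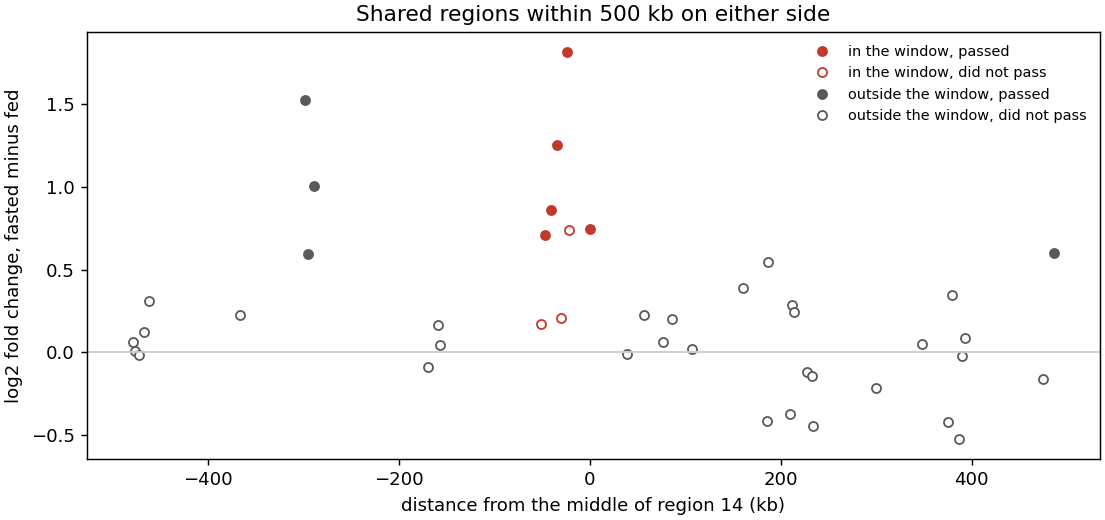
Log2 fold change, fasted minus fed, of shared regions by distance in kb from the middle of region 14; red points lie in the window, grey points outside, and filled points passed an adjusted p of 0.05. Of the 8 red points 5 are filled, in a window picked for risen sites, and of the 35 grey points 4 are filled. Over all shared regions of the series 7.89% passed as higher.

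The profile of a shared region over the 6 libraries was taken as its centred log2 density less its own mean, and profiles differed between members. The median profile of the 8 members was 0.21, 0.74 and 0.24 in fasted replicates 1 to 3, against -0.45, -0.38 and -0.35 in fed replicates 1 to 3. Region 4 lay closest to it, at a root mean square difference of 0.075 on the log2 scale, followed by region 14 (0.172) and region 2 (0.185). The others lay farther off, from 0.314 for region 6 to 0.629 for region 8. In regions 1, 5, 6 and 14 another fasted library was higher than fasted replicate 2 as deposited. Fasted replicate 2 had the lowest median density over shared regions (20.9, against 23.0 and 24.5 in fasted replicates 1 and 3). Centring therefore raises it against them, so this order need not hold on the centred scale. Outside the window, the 3 shared regions with the smallest such difference over the 6 libraries lie on chromosome 16 (14989533 to 14990297, 0.0451), chromosome 3 (31021659 to 31022615, 0.0511) and chromosome 15 (58849167 to 58850710, 0.0533). Their log2 fold changes were 0.77, 0.72 and 0.70. Since these regions were chosen for a profile like the median one, nothing is read from these values. The first had densities of 9.93, 14.6 and 12.1 in fasted libraries, against 6.99, 7.12 and 7.10 in fed libraries. Fasted replicate 2 was the highest, as in the median profile that set the choice.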

How the data were processed

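Per the labels' protocols, nuclei of fresh liver were digested with DNase I at 40 U/ml, and DNA fragments between 100 and 500 bp were kept; per the submitters' processing notes, CASAVA 1.8 and build mm9 were used. Neither aligner nor hotspot caller is given in the sources used here. Per the file headers, each hotspot, called per library by the authors, has a maximum and an average tag density (a coverage signal whose scale is not stated). The z-score that the authors gave each hotspot, also a deposited value, is a score of unstated make, and it was not used. The deposited p-value, likewise the authors' own, was left unused.

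Hotspots sharing at least 1 bp were merged over the 6 lists, and a region's density in a library is the highest maximum there. Shared regions were fitted with limma 3.58.1 (R 4.3.3, eBayes with trend, threshold 0.05, pseudocount 1, median centring), a step tested on simulated data; other tables used Python 3.11.15 with pandas 2.3.3 and matplotlib 3.10.9. If 1 step is 1 tag, replicates of a group differed beyond sampling noise (squared z, averaged over shared regions, of 2.18 to 5.77, where noise gives about 1). None was therefore treated as a duplicate, which does not say whether they came from separate animals.

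The members, gene lists and motifs were chosen with earlier results of these data known. Every region in the window is named, with the 2 nearest outside each end and the 3 most alike elsewhere. Counts at genes of mitophagy and mitochondrial phosphatases, marker genes of liver cells and motifs inside the regions need an mm9 annotation or sequence and were not analysed here. Alternatives were a pseudocount of 0.1 or 10, densities without centring or after quantile normalization, the average density, filling missing calls with the lowest density, keeping the upper 50% of regions, no variance trend, the replicate block, merging within 150 bp, other lists and gaps, and leaving out each replicate.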

Additional observations from a re-analysis of the deposited data

How the results depend on the processing

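For the 8 shared regions of the locus, 113 of 121 refitted values kept direction and side of the threshold and 0 turned sign; region 2 lost its call in 7 of 14 settings and region 9 passed in 1. The median log2 fold change of 0.74 was 0.57 with a pseudocount of 10, which shrinks weak regions by construction, and ran from 0.57 (without fasted replicate 2) to 0.89 (without fasted replicate 1) on leaving out each replicate. The 5 higher members became 8 of 13 with missing values at the lowest density, where more regions are tested and those without fed calls have a fixed direction, 3 of 4 among the denser 50% of regions, where fewer are tested, and 4 to 5 on leaving out each replicate. Over the series, the 2921 higher and 2905 lower regions became 1401 and 1540 in that denser 50%. Without each replicate, 1976 to 3212 were higher and 2021 to 2738 lower. With no centring 1946 were higher and 3189 lower. That setting moves every log2 fold change by the same amount, at the locus the median from 0.74 to 0.67, and its part in the counts was not tested. The stretch of 9 held 5 with gaps of at most 10 kb, as the gap between regions 8 and 10 then splits it, and 8 to 10 without each replicate. Regions called in fasted livers only stayed between 3 and 5. Deviations of fasted and fed libraries with the same number correlated at -0.067, -0.030 and -0.167, so the numbers gave no pairing. With the replicate block 2535 regions were higher and 2539 lower, and the locus again had 5 higher members and a median of 0.74. If 1 step is 1 tag, counting error at the members ran from 4.17% at the highest call to 19.3% at the lowest in fasted libraries. In fed libraries it ran from 5.50% to 21.8%, and its part in the SEs was not tested.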
